A study of Mus musculus with 6 samples.

Results

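The genes described here are 10 regulators of the cell cycle: the E2F transcription factors *E2f1*, *E2f2*, *E2f7* and *E2f8*, the pocket proteins *Rb1* and *Rbl1*, the transcription factors *Foxm1* and *Mybl2*, and the CDK inhibitors *Cdkn1b* and *Cdkn2c*. Each symbol matched 1 of the 54532 Ensembl genes in the count table through the GENCODE M21 annotation. RNA was measured in cardiomyocyte (CM) nuclei of wildtype ICR mice that received 1e+11 viral genomes of AAV9 subcutaneously at 6 d of age and whose hearts were collected at 9 d. The virus carried GFP, YAP6SA or YAP5SA under the cardiac troponin T (cTnT) promoter, which is active in CMs. YAP5SA is a form of YAP with serine-to-alanine changes at the sites that the Hippo pathway kinases LATS1/2 phosphorylate, and YAP6SA carries in addition a serine-to-alanine change that disrupts binding to the TEAD factors. CMs expressing these forms are called YAP5SA and YAP6SA overexpressing (OE) CMs. Nuclei were enriched with an antibody to PCM-1, a centriolar satellite protein that surrounds CM nuclei, and poly-A RNA from them went into libraries that do not keep strand. There were 2 libraries for each virus, from 2 hearts and split over 2 batches, so that n is 2 throughout. SDs rest on the 2 libraries of a group. SEs, confidence intervals and p-values come from a joint fit of the 6 libraries, whose spread for a gene also draws on that of the other genes.

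The pocket proteins RB1 and RBL1 (p107) hold E2F factors at promoters and keep their targets off. Cyclin D with CDK4/6 and cyclin E with CDK2 phosphorylate the pocket proteins, which frees E2F1 and E2F2 to switch on genes of DNA synthesis, and E2F7 and E2F8, atypical E2Fs without a pocket protein binding domain, are themselves E2F targets that repress these genes again. RBL1 also joins the MuvB core to form the repressive DREAM complex, whereas B-MYB (*Mybl2*) binds the same core in dividing cells and recruits FOXM1 to genes of G2 and mitosis. The INK4 protein p18 (*Cdkn2c*) inhibits CDK4/6 and the CIP/KIP protein p27 (*Cdkn1b*) inhibits CDK2. Mouse CMs leave the cell cycle in the first weeks after birth.

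Batch 1 yielded 18832871 gene counts for GFP, 19615627 for YAP6SA and 14552847 for YAP5SA, and batch 2 yielded 16362077, 17176301 and 17197114. All 10 genes passed the filter on low counts, and each would have passed on the GFP libraries alone. The filter asked for a median log2 CPM (counts scaled to the library size) above 1 in any of the groups, and 13323 genes met it. Counts of the 10 genes ran from 29 (*E2f2*, GFP, batch 2) to 1451 (*Foxm1*, YAP5SA, batch 2), and in GFP and YAP6SA each of the 4 E2F genes had fewer counts than *Foxm1* or *Cdkn1b* in the same library. Genes were called at an FDR (Benjamini-Hochberg adjusted p of edgeR's quasi-likelihood test, over all genes kept) under 0.05, in one fit of the 6 libraries with group and batch. The libraries were unevenly spaced: scores on principal component 1 (66.2% of the variance) were -30.5 and -39.2 in GFP, -22.1 and -29.2 in YAP6SA, and 42.7 and 78.3 in YAP5SA. The YAP5SA library of batch 2 therefore stood farthest from the others.

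Promoter sequences were read from RefSeq for 8 of the 10 genes, with 10 promoters among them, to show which carry the DNA word that E2F factors are known to bind. The table covers 250 bases before to 50 bases after each start in GRCm38.p6 and has no entry for *Rb1* and *Foxm1*. The E2F words searched, on both strands, were TTNNCGN, where each N is C or G. They stood in 7 of the 10 promoters, from 6 genes, whereas 17.8% of all 32851 promoters in the table held one. In the 120 bases just before the start they stood in 5 of the 10 promoters (*E2f7*, *E2f8*, *Rbl1*, *Mybl2* and *Cdkn2c*), against 8.3% of all promoters. The RefSeq start of *E2f1*, whose promoter held no E2F word, lies inside its GENCODE gene, and the bases before the GENCODE start were not searched. The 4 of these windows that lie outside the GENCODE gene are printed 5′ to 3′ on the strand of the gene, with the matched words in capitals. They are chr10:110745319-110745438 (plus strand) for *E2f7*, chr7:48881597-48881716 (minus strand) for *E2f8*, chr2:157204535-157204654 (minus strand) for *Rbl1* and chr2:163054515-163054634 (plus strand) for *Mybl2*.

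E2f7: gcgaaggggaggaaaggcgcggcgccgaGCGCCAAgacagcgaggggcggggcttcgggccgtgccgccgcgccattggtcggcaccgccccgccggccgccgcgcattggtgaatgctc
E2f8: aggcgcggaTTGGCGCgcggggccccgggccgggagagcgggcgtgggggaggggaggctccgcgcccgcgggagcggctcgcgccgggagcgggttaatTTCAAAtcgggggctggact
Rbl1: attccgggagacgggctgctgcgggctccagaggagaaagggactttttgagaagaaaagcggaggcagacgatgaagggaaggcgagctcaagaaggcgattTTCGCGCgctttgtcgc
Mybl2: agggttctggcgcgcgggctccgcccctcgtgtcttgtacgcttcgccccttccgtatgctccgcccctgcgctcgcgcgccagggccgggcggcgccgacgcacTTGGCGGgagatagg

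In *E2f7* the capitals are the reverse complement of TTGGCGC, and in *E2f8* the first run is TTGGCGC itself. The second run in *E2f8* is the reverse complement of TTTGAA, the cell cycle genes homology region (CHR) word that the MuvB core is known to bind. CHR words were found in 2 of the 10 promoters, of *E2f2* and *E2f8*, against 17.9% of all promoters, or 7.12% for the 120 bases. *Rbl1* carries TTCGCGC 17 bases before its start and *Mybl2* carries TTGGCGG 15 bases before it. The TEAD word GGAATG was found in 1 of the 10 promoters, that of *Rbl1*, against 14.7% of all promoters. It lies on the opposite strand and begins 121 bases before the start, just ahead of the printed window. The rest of the word runs into that window, where it is not in capitals. A match says that the letters are there and not that a factor bound there, and binding was not measured in these data.

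In GFP CMs, the levels per length (mean CPM per kb of exon ± SD, n = 2) put the inhibitor *Cdkn1b* first at 7.71 ± 1.53. *Foxm1* followed at 3.64 ± 0.52 and *Rb1* at 3.0 ± 0.46, whose ranges over the 2 libraries overlapped. *Cdkn2c* (1.92 ± 0.72) and *Rbl1* (1.61 ± 0.033) came next and also overlapped, as did *Mybl2* (1.22 ± 0.070) and *E2f1* (1.12 ± 0.15). The lowest genes were *E2f8* (0.61 ± 0.20), *E2f2* (0.56 ± 0.24) and *E2f7* (0.41 ± 0.043), of which *E2f2* overlapped both others. YAP6SA OE CMs had *Cdkn1b* (9.18 ± 0.43) at the top of the order and the same 3 genes at its end, with *Rb1* (4.30 ± 0.65) above *Foxm1* (3.53 ± 0.39). In YAP5SA OE CMs the top of the order was *Foxm1* (11.6 ± 3.55), followed by *E2f1* (7.90 ± 1.82), seventh in GFP, and *Cdkn1b* (6.85 ± 0.52), and the neighbours in this order overlapped. *Rb1* (3.60 ± 0.99) came sixth there, and its range overlapped that of *Mybl2* (2.90 ± 1.72).

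**Figure D1:**
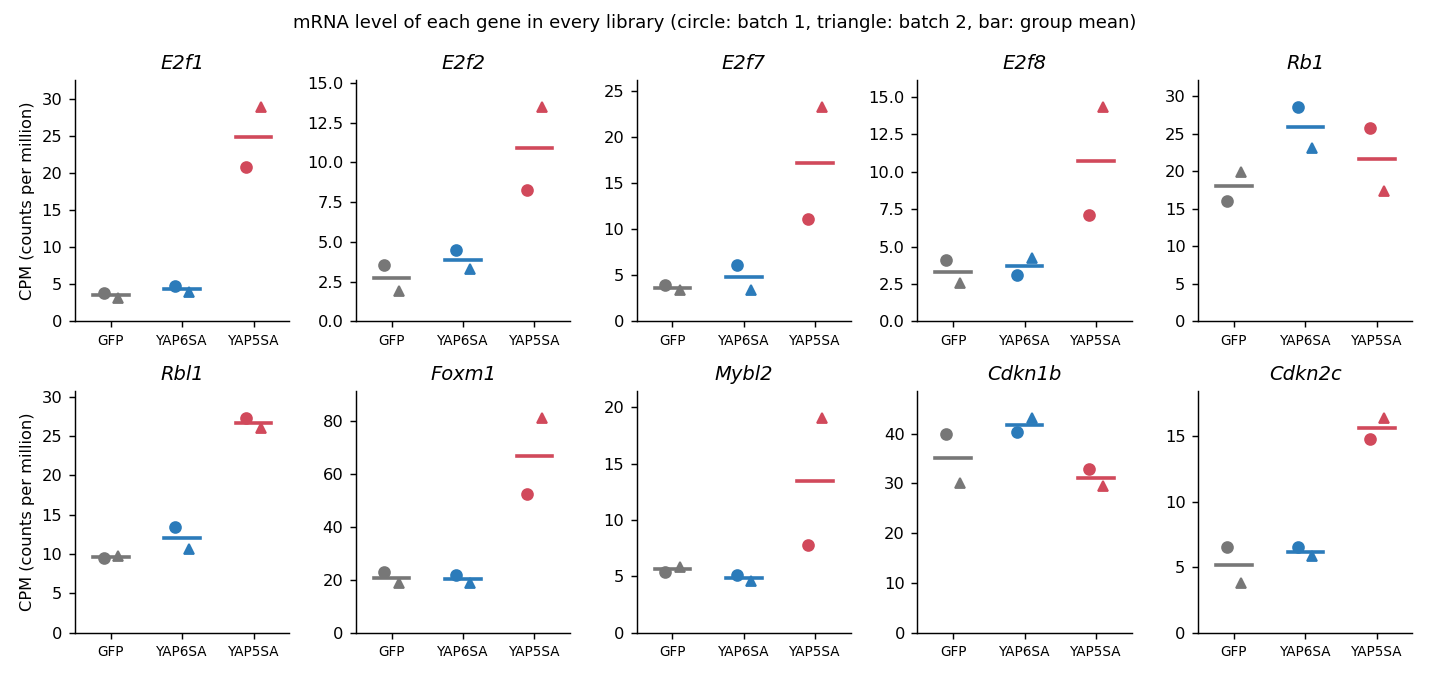
Level of each of the 10 genes in CPM (y axes, linear and starting at 0, each panel on its own scale) in the GFP, YAP6SA and YAP5SA libraries; circles are batch 1, triangles batch 2 and bars the mean of the 2. In 8 panels both YAP5SA points lie above all others, and in those of *Rb1* and *Cdkn1b* they do not.

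Of the 10 genes, 7 were higher in YAP5SA OE CMs than in GFP CMs and 0 were lower (edgeR quasi-likelihood test, FDR threshold 0.05). Over all genes tested, 12.8% were higher and 9.18% were lower. The 7 genes were all 4 E2F factors, the pocket protein *Rbl1*, *Foxm1* and the INK4 inhibitor *Cdkn2c*, and their fitted fold changes ran from 2.76 to 7.0. The median log2 fold change of the 10 genes was 1.61, and that of all genes tested was -0.0031. *Mybl2* narrowly missed the threshold, and *Rb1* and *Cdkn1b* were not called either. Both YAP5SA libraries were above both GFP libraries for 8 of the 10 genes and below for 0, against 31.2% and 29.7% of all genes, and 8 passed an unadjusted p of 0.05, which 36.4% of all genes did. Fits with a library left out have fewer degrees of freedom, and the share of all genes called in them is not given here. Without GFP replicate 2, 3 of the 10 were called (*E2f1*, *Rbl1* and *Foxm1*), and without YAP5SA replicate 2, 5 were called. *E2f1*, *Rbl1* and *Foxm1* were past the threshold whichever of the 6 libraries was left out.

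*E2f1* (ENSMUSG00000027490, chr2:154559407-154569892, minus strand of GRCm38), an activating E2F, showed the largest fitted change of the 10 in YAP5SA OE CMs. Its level, batch 1 first as in all pairs of values here, was 3.89 and 3.20 CPM in GFP, 4.83 and 3.94 CPM in YAP6SA and 20.9 and 29.0 CPM in YAP5SA, from 74, 49, 95, 65, 315 and 517 counts. Both YAP5SA libraries stood well above the other 4. The fitted log2 fold change of YAP5SA against GFP was 2.81 (SE 0.31, FDR 5.2e-04), or 7.0-fold with a 95% confidence interval from 4.35 to 11.2. Within the batches the difference in log2 (CPM + 0.5) was 2.28 and 2.99.

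*E2f2* (ENSMUSG00000018983, chr4:136172394-136196057, plus strand), the other activating E2F of the set, had 3.57 and 1.89 CPM in GFP, 4.48 and 3.27 CPM in YAP6SA and 8.28 and 13.5 CPM in YAP5SA. It was the gene with the fewest counts (68, 29, 88, 54, 125 and 241), and its 2 GFP libraries differed by more than the means of GFP and YAP6SA did. Its log2 fold change in YAP5SA OE CMs was 2.02 (SE 0.44, FDR 0.0115), with 1.11 in batch 1 and 2.55 in batch 2. The call was lost without GFP replicate 2 (FDR 0.128) and without YAP5SA replicate 2 (FDR 0.0697).

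The atypical E2Fs, which repress, were higher together with the activators. *E2f7* (ENSMUSG00000020185, chr10:110745439-110787384, plus strand) had 3.94 and 3.40 CPM in GFP, 6.16 and 3.46 CPM in YAP6SA, and 11.1 and 23.3 CPM in YAP5SA, a log2 fold change against GFP of 2.21 (SE 0.43, FDR 0.00713). *E2f8* (ENSMUSG00000046179, chr7:48866429-48881596, minus strand) had 4.10 and 2.55 CPM in GFP, 3.10 and 4.24 CPM in YAP6SA, and 7.09 and 14.3 CPM in YAP5SA, a log2 fold change against GFP of 1.60 (SE 0.44, FDR 0.0275). In both genes the groups YAP5SA and GFP did not overlap, whereas YAP6SA and GFP did. The change of *E2f8* was 0.72 in batch 1 and 2.28 in batch 2, the widest gap between batches among the 10 genes. *E2f8* was not called without GFP replicate 2 or YAP5SA replicate 2, and *E2f7* missed the threshold without GFP replicate 2. With each library left out in turn, the log2 fold change against GFP ranged from 0.94 to 2.38 for *E2f8* and from 1.35 to 2.94 for *E2f7*.

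The pocket protein genes differed from one another. *Rbl1* (ENSMUSG00000027641, chr2:157145893-157204534, minus strand) had 9.52 and 9.79 CPM in GFP, 13.5 and 10.6 CPM in YAP6SA, and 27.3 and 26.1 CPM in YAP5SA. It was the most even of the called genes, with nearly the same value in both libraries of GFP and of YAP5SA, and its log2 fold change was 1.47 (SE 0.23, FDR 0.00251), with 1.47 in batch 1 and 1.37 in batch 2. *Rb1* (ENSMUSG00000022105, chr14:73183673-73325822, minus strand) had 16.1 and 20.0 CPM in GFP, 28.6 and 23.1 CPM in YAP6SA, and 25.8 and 17.4 CPM in YAP5SA. The YAP5SA and GFP libraries of *Rb1* overlapped, with one YAP5SA library above and the other below its GFP partner (0.67 and -0.19 in batches 1 and 2), and the log2 fold change was 0.24 (95% confidence interval -0.31 to 0.78, FDR 0.521). *Rb1* shares 408 exon bases with *Lpar6* and 488 with *Rcbtb2*, and since reads that fall on more than 1 gene were not counted, reads from these bases are absent from its values. The same holds for 610 exon bases that *E2f8* shares with *Gm2788*, 86 that *E2f7* shares with *1700020G17Rik*, and 144 and 97 that *Foxm1* shares with *Tex52* and *Gm44596*.

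*Foxm1* and *Mybl2* code for the transcription factors that act with the MuvB core on G2/M genes. *Foxm1* (ENSMUSG00000001517, chr6:128362967-128376146, plus strand) had 23.0 and 18.8 CPM in GFP, 21.9 and 18.7 CPM in YAP6SA and 52.5 and 81.3 CPM in YAP5SA. GFP and YAP6SA had nearly the same values, and the log2 fold change of YAP5SA against GFP was 1.67 (SE 0.24, FDR 0.00174). *Mybl2* (ENSMUSG00000017861, chr2:163054687-163084688, plus strand) had 5.41 and 5.88 CPM in GFP, 5.09 and 4.61 CPM in YAP6SA and 7.82 and 19.1 CPM in YAP5SA. The batch 2 YAP5SA library was 2.44 times the batch 1 library, the largest such ratio of the 10 genes, and the log2 fold change of 1.17 (SE 0.38, 95% confidence interval 0.33 to 2.02) missed the threshold at an FDR of 0.0512. It passed in 6 of 9 alternative fits that kept all libraries of the comparison, with FDRs from 0.00267 to 0.0667. With each library left out in turn, the log2 fold change of *Mybl2* ranged from 0.47 to 1.76.

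The CDK inhibitor genes also differed. *Cdkn2c* (ENSMUSG00000028551, chr4:109660876-109667189, minus strand) had 6.52 and 3.79 CPM in GFP, 6.51 and 5.82 CPM in YAP6SA and 14.8 and 16.4 CPM in YAP5SA. Its log2 fold change in YAP5SA OE CMs was 1.62 (SE 0.32, FDR 0.00687), and it was not called without GFP replicate 2 (FDR 0.0948). *Cdkn1b* (ENSMUSG00000003031, chr6:134920401-134925513, plus strand) had 40.0 and 30.2 CPM in GFP, 40.4 and 43.2 CPM in YAP6SA and 32.9 and 29.5 CPM in YAP5SA. The YAP5SA and GFP libraries of *Cdkn1b* overlapped, and the log2 fold change was -0.17 (95% confidence interval -0.58 to 0.25, FDR 0.557).

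**Figure D2:**
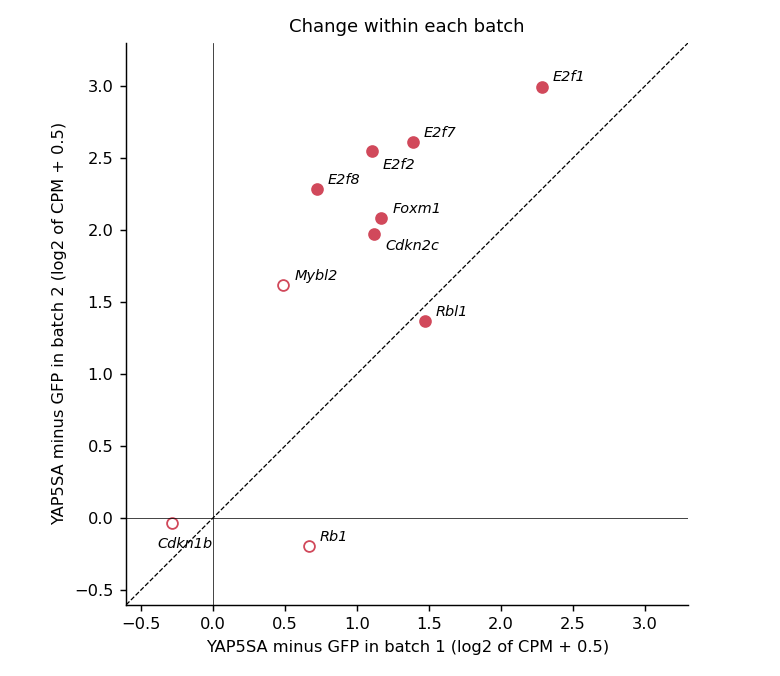
Difference of YAP5SA from GFP in log2 (CPM + 0.5) within batch 1 (x axis) and within batch 2 (y axis) for the 10 genes; filled points were past the FDR threshold, and the dashed line marks equal change. Of the 10 genes, 8 lie above the line, among them *Cdkn1b*, whose decrease was smaller in batch 2, *Rbl1* and *Rb1* lie below it, and *Rb1* changes sign.

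The change was larger in size in batch 2 for 7 of the 10 genes and had the same sign in both batches for 9, as the plot of the 2 batches shows. The median difference of the 10 genes was 1.11 in batch 1 and 2.03 in batch 2, while the median over all genes tested was 0.0033 and 0.0065. Across the 6 libraries, the log2 CPM of *E2f1* and *Foxm1* had the highest correlation of the 45 pairs (Pearson r 0.985) and *Mybl2* and *Cdkn1b* the lowest (r -0.734). The pairs with neither *Rb1* nor *Cdkn1b*, 28 in number, lay between 0.772 and 0.985, and the pairs with either gene lay between -0.734 and 0.286. These values are descriptions over 6 libraries that share the group difference and the batches.

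In YAP6SA OE CMs, none of the 10 genes was called against GFP (0 higher and 0 lower; edgeR quasi-likelihood test), where 0.045% of all genes were higher and 0% were lower. At an unadjusted p under 0.05 the count was also 0, against 5.93% of all genes, and DESeq2, limma-voom and edgeR's likelihood ratio test called 0 as well. Both YAP6SA libraries were above both GFP libraries for 4 genes (*E2f1*, *Rb1*, *Rbl1* and *Cdkn1b*) and below for 1 (*Mybl2*), against 17.3% and 17% of all genes. The median log2 fold change of the 10 genes was 0.29, and that of all genes tested was 0.0018. A positive value was found for 8 of the 10, where 6697 of the 13323 genes tested had one. The fitted log2 fold changes ran from -0.20 for *Mybl2* to 0.50 for *Rb1* and *E2f2*. These values moved when each library was left out in turn: from 0.053 to 1.13 for *E2f2*, 0.15 to 0.90 for *Rb1* and 0.065 to 0.53 for *E2f1*. The interval for *E2f1* (0.31, 95% confidence interval -0.39 to 1.00) and that for *Foxm1* (-0.042, -0.57 to 0.49) lay below the lower bounds of YAP5SA against GFP, 2.12 and 1.13. For *E2f2* (-0.48 to 1.48), *E2f7* (-0.57 to 1.37) and *E2f8* (-0.90 to 1.07) the intervals were wide, and that of *E2f2* reaches up to 2.80-fold. *Rb1* had the smallest unadjusted p (0.0653, FDR 0.842).

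Compared directly, 8 of the 10 genes were higher in YAP5SA than in YAP6SA OE CMs and 0 were lower, where 9% of all genes were higher and 5.68% were lower (edgeR quasi-likelihood test). The log2 difference was 2.5 for *E2f1* (SE 0.30, FDR 0.0011), 1.71 for *Foxm1* (SE 0.24, FDR 0.00213), 1.82 for *E2f7* (FDR 0.0209) and 1.15 for *Rbl1* (FDR 0.00977). *E2f2* (1.52, FDR 0.0401), *E2f8* (1.52, FDR 0.0405), *Mybl2* (1.38, FDR 0.0389) and *Cdkn2c* (1.35, FDR 0.0187) were also past the threshold, the first 3 of them narrowly. Both constructs were given at the same dose and collected at the same time. In this comparison the CM markers *Pln* (-1.0, FDR 0.0127) and *Ryr2* (-0.84, FDR 0.0496) were lower, *Pcm1*, which codes for the antigen of the enrichment, had 0.32 (FDR 0.212) and lay above in both libraries, and the smooth muscle marker *Myh11* (0.92, FDR 0.0476) was higher in YAP5SA, while the other 4 mural cell markers were not called and had values below 0 (*Notch3* -0.43, *Cspg4* -0.21, *Rgs5* -0.16 and *Pdgfrb* -0.10). The remaining CM markers were not called and had values from -0.79 (*Myh6*) to -0.32 (*Myl2*). The part of such marker changes in the result was not tested. *Cdkn1b* was lower in both YAP5SA libraries than in both YAP6SA libraries, with a log2 difference of -0.43 (95% confidence interval -0.84 to -0.016, unadjusted p 0.0433, FDR 0.149 in the same test), and was not called. With it, 9 of the 10 had an unadjusted p under 0.05, against 30.8% of all genes, and 8 and 1 lay above and below in both libraries, against 28.6% and 28.9%. *Rb1* differed by -0.27 (-0.81 to 0.27, FDR 0.496). Without the batch term as a replicate block, 5 of the 10 were called, with FDRs of 0.0592, 0.0588 and 0.0568 for *E2f2*, *E2f8* and *Mybl2*. Without YAP6SA replicate 1, YAP6SA replicate 2 or YAP5SA replicate 2 the count was 5, 2 and 3, and *E2f1* and *Foxm1* were called whichever library was left out. This comparison shares the YAP5SA libraries with that against GFP, so the counts are not independent of each other.

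**Figure D3:**
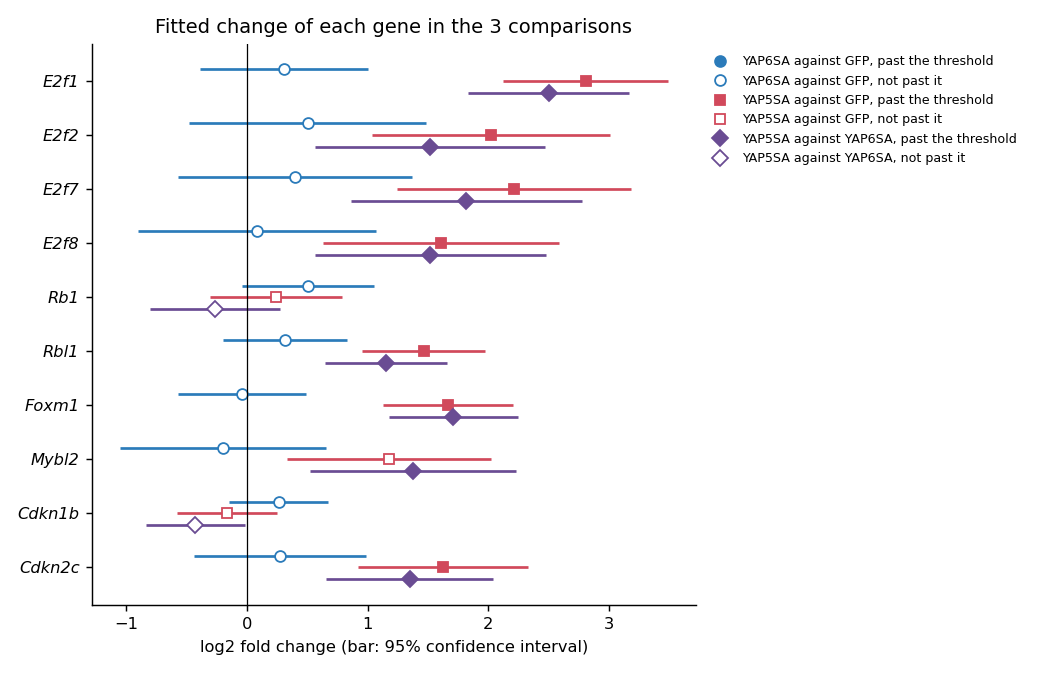
Fitted log2 fold change (x axis) of each of the 10 genes in the 3 comparisons, with bars for the 95% confidence interval and filled symbols past the FDR threshold. All 10 YAP6SA intervals include 0, and in both comparisons with YAP5SA the intervals of 8 genes lie above 0.

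The partners of the 10 genes were examined in 7 lists with 81 genes, of which 79 were tested. Of the other E2F and DP genes, 0 of 6 were called in YAP5SA OE CMs against GFP, with 2 at an unadjusted p under 0.05, where 36.4% of all genes were (edgeR quasi-likelihood test), and a median log2 fold change of 0.23. The values were 0.56 for the activator *E2f3* (FDR 0.0696), 0.13, 0.12 and -0.13 for the repressive *E2f4*, *E2f5* and *E2f6*, and 0.32 and 0.43 for *Tfdp1* and *Tfdp2*, which code for the dimer partners of E2Fs. In YAP6SA OE CMs the same 6 genes lay between -0.15 and 0.57, and 0 were called.

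Of the other pocket protein, MuvB core and MYB genes, 2 of 8 were higher in YAP5SA OE CMs, where 12.8% of all genes were. *Mybl1*, which codes for A-MYB, had 18.0 and 12.1 CPM in GFP, 24 and 20.3 CPM in YAP6SA and 56.1 and 54.1 CPM in YAP5SA, with a log2 fold change of YAP5SA against GFP of 1.89 (SE 0.20, FDR 4.5e-04). *Lin54*, the DNA-binding subunit of MuvB, had 0.90 (FDR 0.02). The other core subunits had 0.24 (*Lin9*), 0.10 (*Lin37*), 0.23 (*Lin52*) and 0.26 (*Rbbp4*), the pocket protein gene *Rbl2* (p130) had -0.063, and *Myb*, with 4 to 52 counts per library, had 1.66 (FDR 0.0687). So *Rbl1* was higher and its relatives *Rb1* and *Rbl2* were not called. In the direct comparison of YAP5SA with YAP6SA, *Mybl1*, *Lin54* and *Myb* were called higher, 3 of the 8, where 9% of all genes were. The count of 2 was 1 without GFP replicate 1, GFP replicate 2 or YAP5SA replicate 2, and the count of 3 was 1 without YAP6SA replicate 1, YAP6SA replicate 2 or YAP5SA replicate 2 and 2 without YAP5SA replicate 1.

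Of the other CDK inhibitors, *Cdkn1a* (p21) was higher in YAP5SA OE CMs, with 17.0 and 23.2 CPM in GFP, 25.5 and 26.4 CPM in YAP6SA, 39.9 and 43.7 CPM in YAP5SA and a log2 fold change against GFP of 1.07 (SE 0.19, FDR 0.00511). *Cdkn2d* (p19 INK4d) had 0.86 (FDR 0.0990) and *Cdkn1c* (p57) had 0.44 (FDR 0.338). *Cdkn2a* and *Cdkn2b*, with at most 3 and 9 counts in a library, were not tested. Among the CDK inhibitor genes with a test, *Cdkn2c* and *Cdkn1a* were thus called higher and none was called lower, where 12.8% of all genes were higher and 9.18% lower.

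Of the cyclins and kinases that act on RB, 2 of 8 were higher, against the same 12.8% of all genes. *Ccne1*, the gene of cyclin E1, had 3.94 and 3.0 CPM in GFP, 4.58 and 4.97 CPM in YAP6SA and 10.7 and 21.9 CPM in YAP5SA, a log2 fold change against GFP of 2.16 (SE 0.38, FDR 0.00468), and *Ccnd3* had 0.67 (FDR 0.0317). *Ccnd1* (1.10, FDR 0.122), *Ccnd2* (0.66, FDR 0.0791) and *Cdk2* (0.41, FDR 0.0712) missed the threshold, and *Ccne2*, *Cdk4* and *Cdk6* had 0.31, 0.26 and -0.14. The count of 2 became 1 without GFP replicate 1, 0 without GFP replicate 2 and 4 without YAP5SA replicate 1. Of the ubiquitin ligase that targets p27 for degradation, 2 of 5 genes were higher, again against 12.8%. *Skp2*, the subunit that recognises p27, had 8.25 and 5.03 CPM in GFP, 8.04 and 9.94 CPM in YAP6SA and 22.3 and 36.5 CPM in YAP5SA, a log2 fold change against GFP of 2.11 (SE 0.33, FDR 0.00266), and its cofactor *Cks1b* had 1.83 (FDR 0.00686). The remaining subunit genes *Cul1*, *Skp1a* and *Rbx1* had -0.22, 0.49 and 0.12 and were not called.

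Of the G1/S genes known as E2F targets, 21 of 24 were higher in YAP5SA OE CMs than in GFP and 0 were lower, where 12.8% of all genes were higher and 9.18% lower, with a median log2 fold change of 1.67. The largest changes were those of *Rrm2* (2.72, FDR 8.3e-04), a ribonucleotide reductase subunit, *Uhrf1* (2.48), which recruits the maintenance DNA methyltransferase, and the replication origin genes *Mcm3* (2.46) and *Cdc6* (2.40). Among the genes not called were *Pola1* (0.84, FDR 0.0534), which codes for a DNA polymerase subunit, and *Slbp* (0.31, FDR 0.214), which codes for a histone mRNA binding protein. Of the G2/M genes known as B-MYB and FOXM1 targets, 24 of 25 were higher, against the same 12.8% of all genes, with a median of 1.81. Within the batches the median difference was 1.36 and 1.97 for the G1/S list and 1.28 and 2.25 for the G2/M list. *Cdc25c* (2.39, FDR 0.00161), the phosphatase that activates CDK1, *Top2a* (2.15), *Bub1* (2.08) of the spindle checkpoint and *Ccnb2* (2.05) led this list. The remaining gene, *Cenpa* (the centromeric histone H3), had -0.52 (FDR 0.0529) and was singled out after its value was seen. Its level in GFP, 353 and 334 CPM, was far above that of any other gene of the list. The reason for this level was not tested. Genes of both lists are widely expressed in cycling cells, and they were listed as known targets, not as targets measured in CMs.

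In YAP6SA OE CMs, 0 of the 79 genes in the 7 lists were called and 6 had an unadjusted p under 0.05 (edgeR quasi-likelihood test), where 0.045% of all genes were called higher and 5.93% had such a p. The median log2 fold change was 0.35 for the G1/S list and 0.075 for the G2/M list, and 20 of 24 and 17 of 25 genes had a positive value, where 6697 of the 13323 genes tested did. Both YAP6SA libraries were above both GFP libraries for 14 of the 24 G1/S genes and 1 of the 25 G2/M genes, against 17.3% of all genes. Against YAP6SA, YAP5SA OE CMs had 20 of 24 and 23 of 25 genes higher, and 49 of 79 over all lists, where 9% of all genes were higher. Against GFP the count over all lists was 52, which became 34 without GFP replicate 2 (17 of 24 G1/S and 13 of 25 G2/M genes), and that against YAP6SA became 24 without YAP6SA replicate 2 (11 of 24 and 11 of 25).

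**Figure D4:**
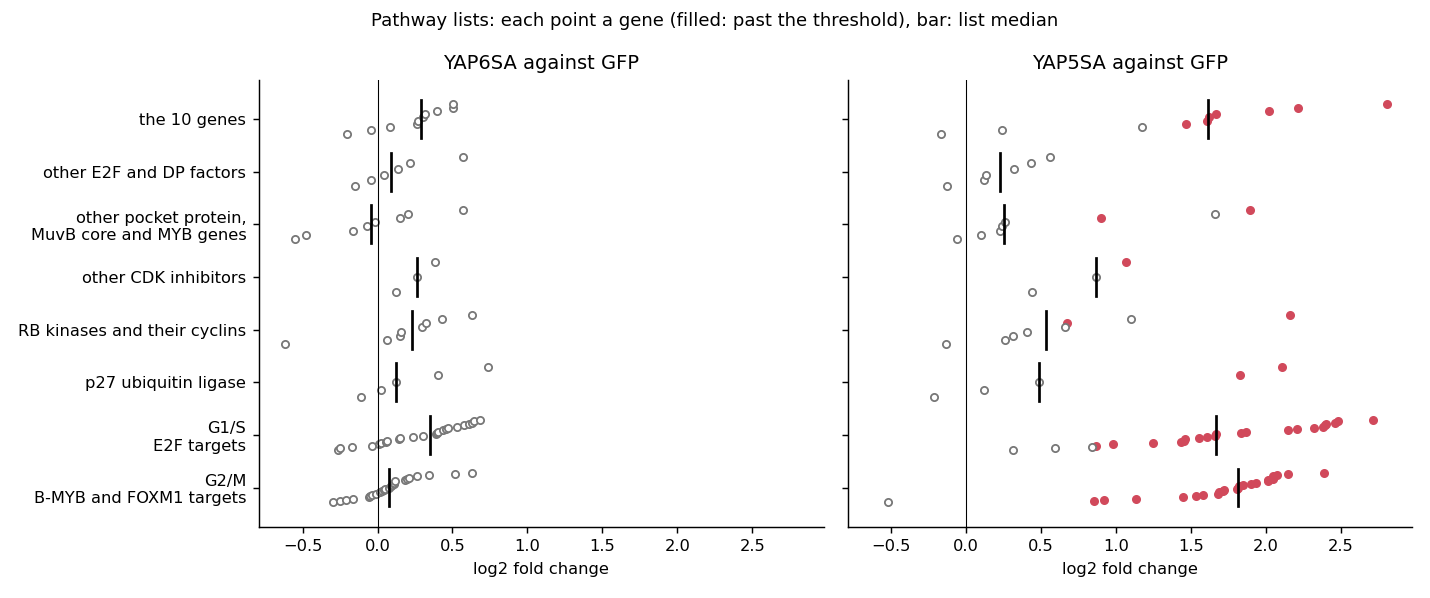
Log2 fold change against GFP (x axis, the same scale in both panels) of the 10 genes and of the tested genes of the 7 lists in YAP6SA (left) and YAP5SA OE CMs (right); each point is a gene, filled when past the FDR threshold, and bars are medians. In YAP5SA the filled points gather in the 10 genes and the lists of G1/S and G2/M targets, with medians of 1.61, 1.67 and 1.81, and no point is filled in YAP6SA.

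Markers of CMs and of other cell types were summed in each library to set beside these values. The 9 CM markers, led by *Myh6*, summed to 52481 and 67842 CPM in GFP, 51135 and 65079 CPM in YAP6SA and 44691 and 31845 CPM in YAP5SA. In YAP5SA 2 of them, *Pln* (-1.04, FDR 0.00784) and *Ryr2* (-0.81, FDR 0.0455), were lower than in GFP, where 9.18% of all genes were. *Myh6* (-1.04, FDR 0.0625), *Ttn* (-0.76, FDR 0.0516) and *Tnni3* (-0.75, FDR 0.0674) missed the threshold but lay below GFP in both libraries. *Tnnt2* (-0.35), *Myl2* (-0.13) and *Actc1* (-0.086) were not called either, and *Pcm1* had 0.24 (FDR 0.313). Both YAP5SA sums were below both GFP sums, no other list came near this level, and no CM marker was at 0. The 8 fibroblast markers, led by *Col3a1*, summed to 1367 and 860 CPM in GFP, 1777 and 984 CPM in YAP6SA and 1496 and 906 CPM in YAP5SA, and the 6 endothelial markers, led by *Tie1*, summed to 268 and 223 CPM in GFP, 316 and 214 CPM in YAP6SA and 289 and 234 CPM in YAP5SA. Both sums overlapped between the groups, and both were higher in YAP5SA than in GFP within each batch. In any comparison 0 of these 14 genes were called (edgeR quasi-likelihood test), where 12.8% of all genes were higher and 9.18% lower in YAP5SA against GFP. At an unadjusted p under 0.05 there were 3 in YAP5SA against GFP, *Col1a1*, *Dcn* and *Pdgfra*, the last of them with a value below 0, against 36.4% of all genes. In YAP6SA against GFP there were also 3, *Col1a1* (0.37), *Dcn* (0.46) and *Postn* (0.38), against 5.93% of all genes. The 8 fibroblast markers all had values above 0 in YAP6SA against GFP, from 0.021 (*Pdgfra*) to 0.46 (*Dcn*), where 6697 of the 13323 genes tested did.

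The 6 macrophage markers, led by *Csf1r*, summed to 55.0 and 77.2 CPM in GFP, 64.3 and 88.2 CPM in YAP6SA and 70.2 and 105 CPM in YAP5SA, with *C1qa* higher in YAP5SA than in GFP (0.96, FDR 0.0228). The 5 mural cell markers, led by *Cspg4*, summed to 229 and 172 CPM in GFP, 252 and 205 CPM in YAP6SA and 223 and 186 CPM in YAP5SA, with *Myh11*, a smooth muscle myosin, higher in YAP5SA than in GFP (1.00, FDR 0.0274). The other 4 were not called in YAP5SA against GFP, with 0.70 for *Rgs5* (FDR 0.0604), -0.20 for *Notch3*, -0.13 for *Cspg4* and -0.035 for *Pdgfrb*. In YAP6SA against GFP *Rgs5* had 0.85 (unadjusted p 0.00455, FDR 0.504 in the edgeR quasi-likelihood test). The 4 erythroid markers, led by *Hbb-bs*, summed to 46.1 and 57.9 CPM in GFP, 59.9 and 23.9 CPM in YAP6SA and 43.7 and 30.3 CPM in YAP5SA. The macrophage sum overlapped between YAP5SA and GFP but was higher in YAP5SA within each batch, the mural sum overlapped with opposite directions in the 2 batches, and the erythroid sum was below GFP in both YAP5SA libraries. The 10 genes summed to 116 and 99.4 CPM in GFP, 135 and 121 CPM in YAP6SA and 208 and 270 CPM in YAP5SA. In such bulk libraries, fewer nuclei of a kind cannot be told apart from less RNA per nucleus. The part of other cell types in the result was not tested.

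**Figure D5:**
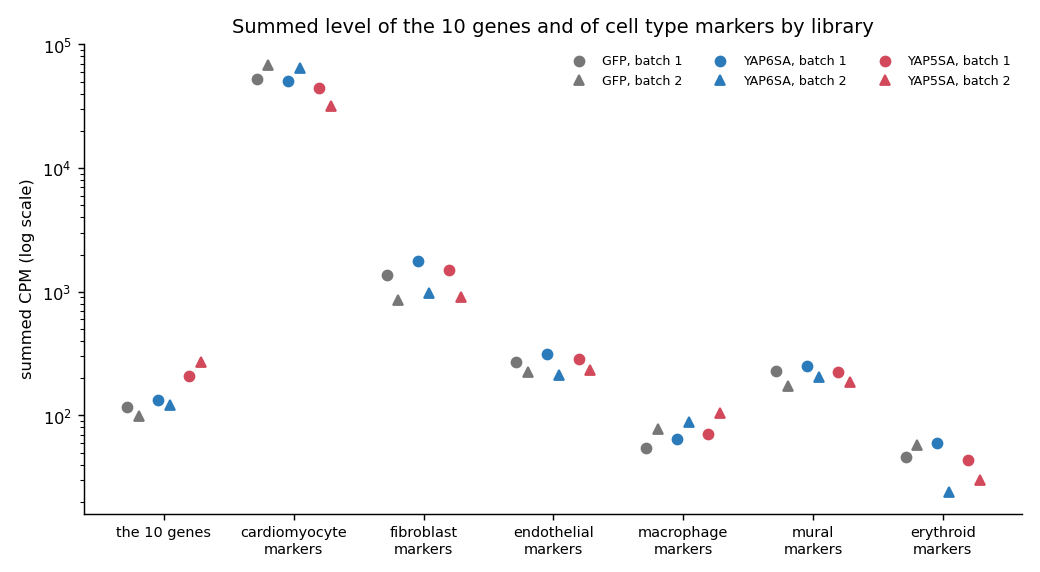
Summed level in CPM (y axis, log scale) of the 10 genes and of 6 lists of cell type markers in each of the 6 libraries, by group (colour) and batch (circle or triangle). The 10 genes reach 208 and 270 CPM in YAP5SA against 116 and 99.4 CPM in GFP, and the CM markers are lowest in the YAP5SA library of batch 2.

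By the correlation of log2 CPM over the 6 libraries, the 5 genes most like *E2f1* among all genes kept were *Eif3f*, *Eif1a*, *Wsb1*, *Arhgef39* and *2200002D01Rik* (r 0.997 to 0.999), and those most like *Foxm1* were *Slfn9*, *Troap*, *Tsc22d2*, *Txndc5* and *Atp10a* (r 0.998 to 0.999). For *Rb1* they were *Trim34b*, *Prkar1a*, *Olfml2b*, *Slmap* and *Gm37309* (r 0.964 to 0.980), and for *Cdkn1b* *1810010H24Rik*, *Gm6939*, *Gm10557*, *Slc25a16* and *Zfp979* (r 0.980 to 0.988). With 6 libraries and 13323 genes, high values arise for many genes, and these names are given as a description. None of the 4 sets shared a gene with another.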

How the data were processed

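CM nuclei that bound the PCM-1 antibody gave 6 libraries, 2 for each virus. The authors aligned the reads with STAR (version not given in the sources used here) to mm10 with the Ensembl annotation of GRCm38, and deposited raw counts per gene. Reads ambiguous between genes (5.79% to 6.31% of reads), reads with several mapping places and reads outside genes do not enter these counts. The gene totals ran from 14552847 to 19615627, and a count of 0 allows up to 3 counts, for counting error alone. Chi-square per degree of freedom between the replicates was 25.3 in GFP, 28.7 in YAP6SA and 39.6 in YAP5SA, so no library was a copy.

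The low-count filter was that of the study's methods. The main test was edgeR 4.0.16 in R 4.3.3: TMM factors, then a quasi-likelihood model of all 6 libraries with group and batch, with Benjamini-Hochberg adjustment over 13323 genes. CPM are counts scaled to the library size times its TMM factor, and levels per length use the union of exons in GENCODE M21 (GRCm38, the build of mm10). Differences within a batch are of log2 (CPM + 0.5). The replicate number in the labels is the batch number and so pairs the libraries, whose deviations from the group means correlated across genes at 0.368 for GFP with YAP6SA, 0.0985 for GFP with YAP5SA and 0.175 for both YAP forms. The fit was also run on simulated counts with the same spread for every gene and no batch effect. That run does not show how the fit does at the spread of these data.

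The 10 genes, the lists and the tests were chosen with earlier results of these data known. All 10 genes are named, as are all genes of the partner lists with up to 8 genes. For the longer partner lists the 4 largest called changes are named, and the marker lists are named in part. The 5 genes most like each of 4 members are also named. The alternatives were 2 other scalings (RLE, upper quartile), 2 other filters (none, or 10 counts or more in each library), 3 other tests (the likelihood ratio test of edgeR, DESeq2 1.42.0, and voom in limma 3.58.1), a fit without batch, fits of 4 libraries, thresholds of 0.01 and 0.1, and each library left out in turn. A left-out library leaves 1 residual degree of freedom, and the lone library of its group is then assumed to vary like those of the other groups. Counts called in such fits are given without the share of all genes called in them. A loss of calls there cannot be told apart from a general loss of power. Promoters came from RefSeq (GRCm38.p6). Some single genes of the lists are not reported here.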

Additional observations from a re-analysis of the deposited data

How the results depend on the processing

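Of 450 alternative values for the 30 log2 fold changes of the 10 genes, 408 kept their direction and their side of the threshold, 23 lost the call, 7 gained it (all *Mybl2*, YAP5SA against GFP) and 12 turned their direction, all 12 of them in genes that were not called. Leaving out each library in turn gave 3 to 8 of the 10 genes called in YAP5SA against GFP (fewest without GFP replicate 2) and 2 to 8 in YAP5SA against YAP6SA (fewest without YAP6SA replicate 2), and 34 to 60 and 24 to 56 genes of the 7 lists in the same comparisons. In YAP6SA against GFP the count of the 10 genes was 0 under each alternative. In YAP5SA against YAP6SA, 5 of the 10 were called with no replicate block, which changed no other call of the 10 genes, and 3 at an adjusted p under 0.01. The turned directions all came from leaving out a library. In YAP6SA against GFP the log2 fold change then ranged from -0.36 (without YAP6SA replicate 1) to 0.95 for *E2f7*, from -0.55 (without GFP replicate 2) to 0.89 for *E2f8*, with -0.021 without YAP6SA replicate 2, from -0.27 to 0.23 (without GFP replicate 1) for *Foxm1*, with 0.14 without YAP6SA replicate 2, from -0.68 to 0.18 (without YAP6SA replicate 2) for *Mybl2*, with 0.065 without GFP replicate 1, and from -0.078 (without GFP replicate 2) to 0.70 for *Cdkn2c*. In YAP5SA against GFP it ranged from -0.12 (without GFP replicate 1) to 0.62 for *Rb1*, with -0.041 without YAP5SA replicate 1, and from -0.34 to 0.046 (without GFP replicate 1) for *Cdkn1b*. In YAP5SA against YAP6SA it ranged from -0.56 to 0.0052 (without YAP5SA replicate 2) for *Rb1*. The cause of these moves was not tested. With 2 libraries per group and as few as 29 counts in a library, the low E2F genes have wide intervals.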
